A study of Mus musculus with 38 samples.

Results

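The genes described here are 32 genes of cholesterol synthesis, its regulation, transport and removal, out of 25230 genes in a count table of a mouse brain region: bed nucleus of the stria terminalis, anterodorsal part (adBNST). They were taken by symbol from a list that uses no expression value as a criterion, though it was drawn up with earlier results of these data known, and all 32 were among the 16309 genes with enough counts to test. The list holds 8 genes of the mevalonate steps, 11 of the sterol steps, 5 regulators, 4 genes of intracellular transport and storage, and 4 of efflux and removal. This part of the extended amygdala is known for its role in anxiety-like behaviour and for its output to stress hormone centres. All mice were wild type. They were females or males, and were kept as controls or put through 6 weeks of chronic variable mild stress, in which mild stressors are given in changing order. The nucleus was microdissected, and stranded libraries were made from its poly-A RNA. Each control group, female or male, had 10 libraries, and each stressed group had 9. The study asked how stress, sex and their interaction change expression in this nucleus. The labels do not state that each library came from a separate animal, so p-values measure the spread between libraries, which may be technical.

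Brain cholesterol is made within the brain, because the blood-brain barrier keeps lipoproteins out. Acetyl-CoA is turned through mevalonate into isoprenoids, farnesyl groups are joined in pairs to squalene, and squalene is closed into the first sterol and trimmed to cholesterol. The transcription factor SREBP-2 switches these genes on when the membranes of the endoplasmic reticulum run low in sterol. SCAP carries the factor to the Golgi, and the INSIG proteins hold it back. Astrocytes pass cholesterol to neurons on apolipoprotein E, oligodendrocytes use large amounts for myelin, and neurons remove the excess as 24-hydroxycholesterol.

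Total counts ran from 9.1 to 84.8 M per library, and both ends of this range were control males. The 14 genes taken to mark the region were present in every library, and the lowest value of Gad2, which makes GABA, was 658 CPM. Others of the 14 were low and uneven: Prkcd ran from 9.29 to 110 CPM, Crh from 4.72 to 39.3 and Esr1 from 2.54 to 40.7. CPM is the count divided by the effective library size in M. Among the 38 libraries, 5 stood apart on the first principal component of all genes: control females 1 and 6, stressed females 1 and 2 and control male 3. Their summed level of 15 oligodendrocyte markers was 21929 to 27462 CPM, against 5021 to 17675 in the other 33. The summed level of the 14 region genes was 3455 to 5974 CPM in the 5 and 2931 to 3888 in the 33. That sum leans on abundant genes such as Gad2 and Penk, and Penk ran from 431 through a median of 902 to 3027 CPM. The replicate number also cut across the groups. Libraries numbered 1 to 5 and libraries numbered 6 and above differed in many genes when group means were in the fit. The difference was not tested inside each group, and the labels do not call the numbers a batch.

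Levels of the 32 genes spanned nearly 3 orders of magnitude per kilobase of transcript. Apoe, the lipoprotein that carries cholesterol from astrocytes, was highest at 1151 ± 329 CPM per kilobase (SD, n = 38). Cyp46a1, the neuronal enzyme that makes 24-hydroxycholesterol, followed at 93.9 ± 36.7. Hmgcs1, which makes HMG-CoA at the start of the mevalonate steps, came next at 53.3 ± 9.05. Of its 50-base words, 13.6% also lie on the opposite strand in Gm48342, so its counts are uncertain while the strand setting is not known. Apoe lay above Cyp46a1 in 38 of 38 libraries, Cyp46a1 above Hmgcs1 in 36, and Hmgcs1 above Srebf2 in 36.

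The regulators were spread over the upper and middle part of the order. Srebf2, which encodes SREBP-2, was in place 4 with 34.4 ± 4.18 CPM per kilobase (SD, n = 38), and Scap in place 7 with 23.9 ± 4.25, behind Msmo1 and Pmvk. Srebf1, which encodes the related factor that leans toward fatty acid genes, had 19.98 ± 5.03 in place 9, and Insig2 and Insig1 were in places 16 and 18. In the middle of the order neighbours could not be told apart: Fdps lay above Srebf1 in only 20 of 38 libraries, and Srebf1 above Npc1 in 17. Soat1, which esterifies cholesterol for storage, was low at 3.39 ± 0.780. Idi1, the isomerase that makes dimethylallyl diphosphate, was lowest at 1.29 ± 0.880, below Soat1 in 38 of 38 libraries. Counts for Idi1 ran from 1 to 611 per library, so its values carry the most counting error. Of the 50-base words of Idi1, 21.3% also occur in Gm13502 and 9.2% on the opposite strand in Gm48574. Fdps shares 86.4% of its words with other genes and Acat2 45.9% with Acat3, so the places of these genes in the order are uncertain.

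**Figure D1:**
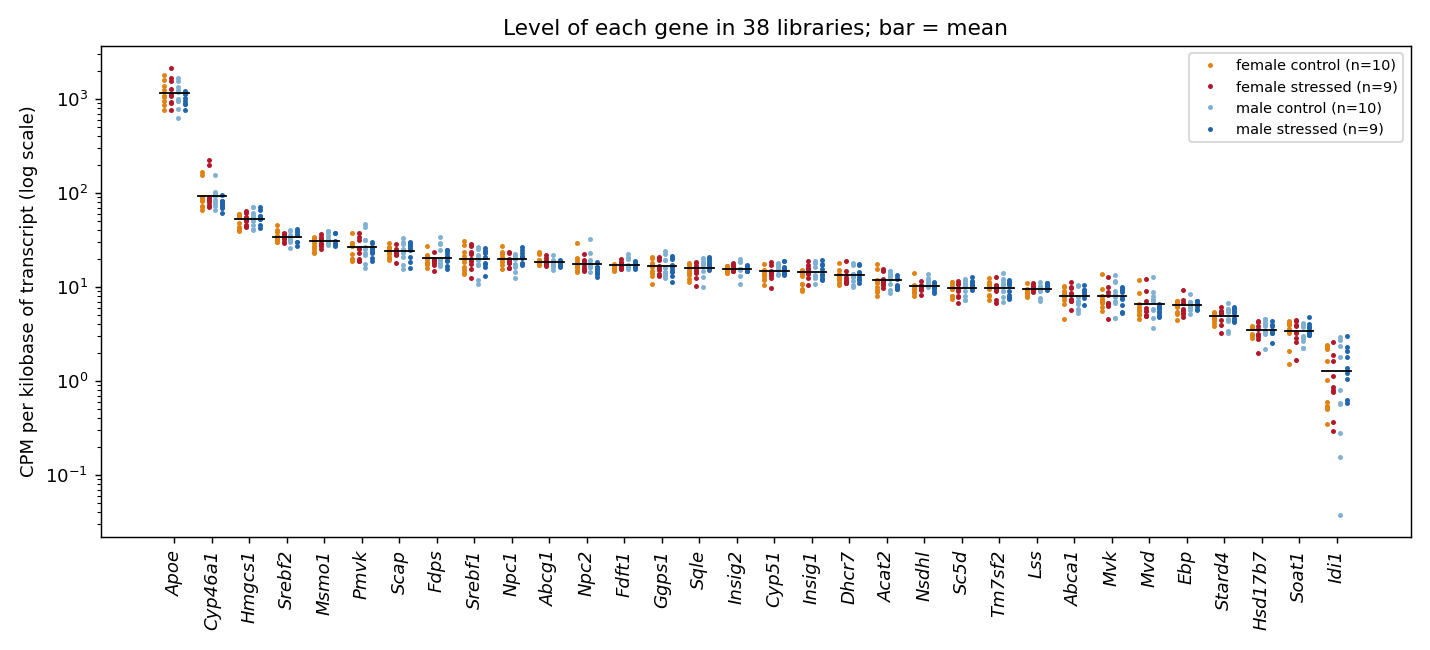
The vertical log axis is CPM per kilobase of transcript and the genes are in order of their mean over 38 libraries (bar). Points are libraries coloured by group. Apoe stands above all others and Idi1 below, and the colours of the 4 groups overlap at each gene.

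The sequences below show the transcripts of most extreme base composition among the 32, because composition runs alongside the values further on. They are the first 90 coding bases of the genes with the lowest and the highest share of G and C in the whole transcript, with G and C in capitals. Sequences are from GENCODE M21 transcripts of GRCm38, and the coordinates run from the first to the last of these bases, introns included. Ggps1 lies on the minus strand (chr13:14055201-14057865), Idi1 on the plus strand (chr13:8885860-8885949), Apoe on the minus strand (chr7:19697601-19698230) and Mvk on the plus strand (chr5:114445402-114446170).
Ggps1: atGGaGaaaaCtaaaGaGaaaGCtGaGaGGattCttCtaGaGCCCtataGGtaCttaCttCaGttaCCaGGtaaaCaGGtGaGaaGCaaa
Idi1: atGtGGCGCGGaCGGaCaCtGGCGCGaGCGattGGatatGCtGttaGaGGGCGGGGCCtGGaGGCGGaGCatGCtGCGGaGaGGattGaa
Apoe: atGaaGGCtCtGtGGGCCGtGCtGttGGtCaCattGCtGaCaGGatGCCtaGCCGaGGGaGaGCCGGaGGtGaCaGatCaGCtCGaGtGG
Mvk: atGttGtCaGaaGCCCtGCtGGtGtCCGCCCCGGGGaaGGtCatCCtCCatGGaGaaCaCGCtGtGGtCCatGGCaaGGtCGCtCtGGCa
The whole transcripts hold 40.1% G+C for Ggps1, 41.9% for Idi1, 59.5% for Apoe and 59.6% for Mvk. The printed stretch does not always follow the whole: it holds 40.0% in Ggps1 but 63.3% in Idi1, and 60.0% and 61.1% in Apoe and Mvk. Over the 32 genes the median was 50.5%, and over 16036 tested genes with a transcript it was 50.2%.

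Stress changed none of the 32 genes past the test in females or in males. With edgeR's quasi-likelihood test, 0 of 32 passed in females and 0 of 32 in males, where the background was 0% of 16309 genes in each. At an unadjusted p under 0.05 there were 0 members (308 of all genes) in females and 2 members (655 of all genes) in males. DESeq2 and limma voom also called 0 members, with 0 and 0 members under an unadjusted 0.05 in females and 2 and 3 in males. The median log2 fold change over the 32 was 0.0071 in females and -0.0085 in males, beside 0.0098 and -0.022 over all genes. In these dissections, fewer cells of a type and less RNA per cell cannot be told apart.

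Among the 8 mevalonate genes, 4 lay above 0 and 4 below in stressed females, and 2 above and 6 below in stressed males. Of all genes, 53.6% lay above 0 in females and 45% in males. Hmgcs1 ran from 135.8 through a median of 179 to 209 CPM in control females and from 149.9 through 178 to 224 in stressed females. In males it ran from 139.9 through 194 to 248 in controls and from 147.6 through 186 to 249 in stressed mice. The groups overlapped almost fully, and the log2 fold changes were 0.05 ± 0.11 in females and 0.00 ± 0.11 in males. Mvk, mevalonate kinase, had estimates of -0.02 ± 0.19 and -0.12 ± 0.19. Mvd, the decarboxylase of the last mevalonate step, had 0.04 ± 0.19 and -0.31 ± 0.19. Idi1 gave the widest error, with -0.05 ± 0.49 in females and 0.33 ± 0.49 in males.

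Among the 11 sterol genes, Nsdhl was the one with an unadjusted p under 0.05 in males. It encodes a dehydrogenase that helps to remove methyl groups from the sterol ring. Its level ran from 21.6 through a median of 24.6 to 30.1 CPM in control males and from 18.6 through 21.2 to 24.5 in stressed males. The ranges overlapped between 21.6 and 24.5. Its log2 fold change was -0.20 ± 0.081 with an edgeR adjusted p of 0.863, and in females it was -0.01 ± 0.081. Lss, lanosterol synthase, had the smallest p of the 32 over both sexes, at 0.13 ± 0.051 with an adjusted p of 1. Its median went from 41.5 CPM in control females to 45.98 in stressed ones, and from 43.2 in control males to 47.4 in stressed ones. Its estimate was nearly the same in each sex, at 0.13 ± 0.072 and 0.13 ± 0.072. Of the libraries that stood apart, control females 1 and 6 and control male 3 had 39.1, 36.9 and 33.4 CPM of Lss. Stressed females 1 and 2 had 48.9 and 51.0 CPM. These values lie in the direction of the estimates, and the estimates of Lss without those libraries are not given here. Sqle, squalene epoxidase, had estimates of 0.05 ± 0.11 in females and 0.11 ± 0.11 in males, and Hsd17b7, a sterol ketone reductase, -0.04 ± 0.12 and -0.05 ± 0.12.

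No regulator passed the test. Srebf2 had a median of 173 CPM in control females against 174 in stressed ones, and 168 in control males against 182 in stressed ones. Its log2 fold changes were -0.05 ± 0.087 and 0.06 ± 0.087. Srebf1 had 0.03 ± 0.17 and 0.10 ± 0.17, and Scap -0.01 ± 0.12 and 0.02 ± 0.12. Insig1, itself a target of SREBP that reports low sterol, had the smallest p of the 32 in females. It ran from 24.5 through 36.6 to 40.5 CPM in control females and from 28.5 through 40.6 to 51.1 in stressed females, and the adjusted p for its change of 0.24 ± 0.12 was 1. In males Insig1 had -0.05 ± 0.12. Insig2, its relative, had 0.05 ± 0.078 in females and -0.02 ± 0.078 in males.

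In transport and storage, Npc2 and Npc1 gave the lowest p-values in males. They are the pair that hands cholesterol out of the lysosome, Npc2 in its lumen and Npc1 in its membrane. Npc2 ran from 47.2 through a median of 56.0 to 106 CPM in control males and from 42.2 through 51.2 to 61.0 in stressed males. The log2 fold change was -0.30 ± 0.12 with an edgeR adjusted p of 0.863. Control male 3, which is also among the 5 libraries that stood apart, was the highest value at 105.8 CPM, and without those 5 libraries the change was -0.18 ± 0.077.

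Npc1 had estimates of opposite sign in females and males. It ran from 82.3 through 108 to 143 CPM in control females and from 83.2 through 97.9 to 124 in stressed females. In males it ran from 65.0 through 98.2 to 118 in controls and from 89.7 through 110.4 to 140.6 in stressed mice. The log2 fold changes were -0.11 ± 0.11 and 0.21 ± 0.11. The difference of these effects, 0.32 ± 0.15, had an unadjusted p of 0.043 and an edgeR adjusted p of 0.845. In the interaction 0 of 32 members passed where the background was 0% of 16309 genes, and 1 member and 736 of all genes were under an unadjusted 0.05. Soat1 and the sterol carrier Stard4 had estimates smaller than their errors in females, and 0.20 ± 0.16 and 0.02 ± 0.12 in males.

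In efflux and removal the largest estimates belonged to Cyp46a1. It ran from 139 through a median of 178 to 358 CPM in control females and from 150.3 through 179 to 472 in stressed females. In males it ran from 138 through 186 to 332 in controls and from 129 through 164 to 200.1 in stressed mice. The medians were close, and in each of the 3 groups that held libraries that stood apart, those were its top values. Its estimate of 0.20 ± 0.20 in females was 0.03 ± 0.089 without those libraries. In males -0.25 ± 0.20 became -0.13 ± 0.081. Abca1, the transporter that loads cholesterol onto apolipoproteins, had estimates of 0.04 ± 0.13 in females and 0.24 ± 0.13 in males. Abcg1, its partner, had -0.04 ± 0.069 and 0.01 ± 0.069, and Apoe 0.10 ± 0.18 and -0.16 ± 0.18. Averaged over both sexes, 0 of 32 members passed where the background was 0%, with 2 members, Lss and Npc2, and 239 of all genes under an unadjusted 0.05.

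**Figure D2:**
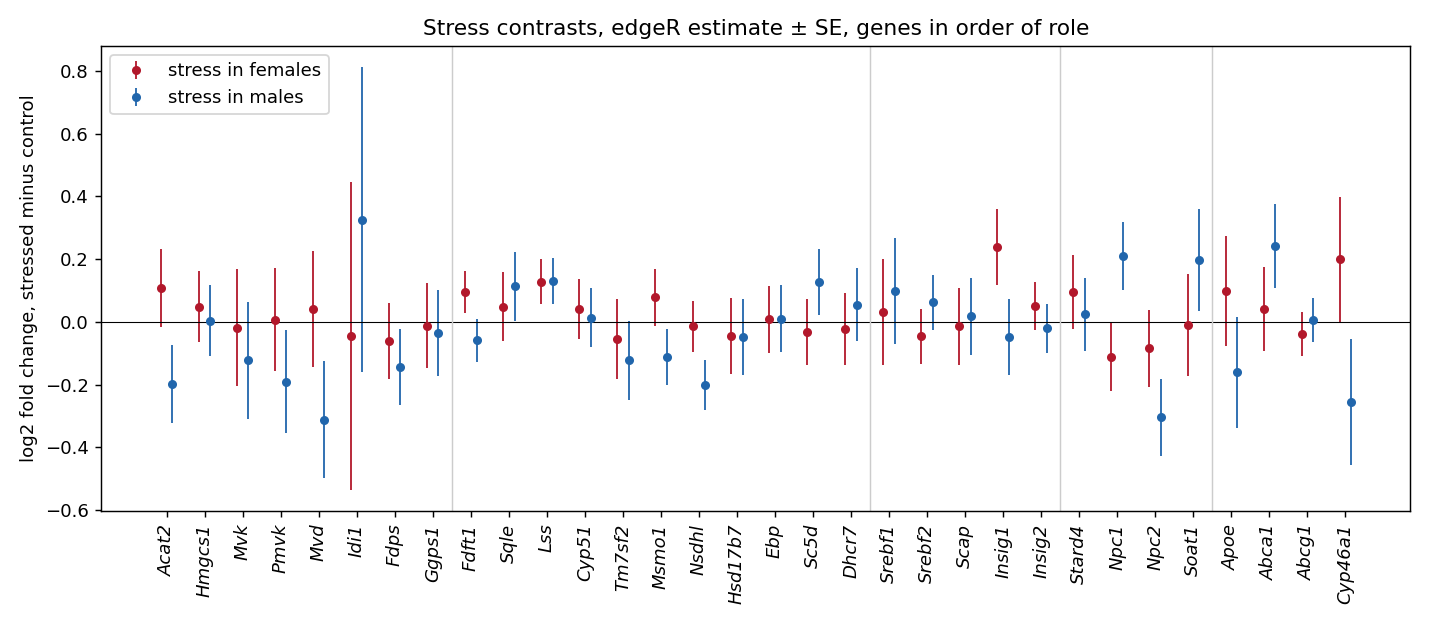
Points are edgeR log2 fold changes of stressed minus control mice with their SE, females in red and males in blue, and vertical lines part the roles (mevalonate, sterol, regulation, transport and storage, efflux and removal). No gene passed the test in either sex, and Idi1 has the longest error bars.

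Transcript length ran alongside the estimates in males. Across the 32 genes the Spearman correlation of the change in stressed males with transcript length was 0.71, and across 16036 genes it was 0.50. In females these values were -0.13 and -0.30. They are correlations across genes, which are not independent replicates. A length index of each library, the correlation across genes other than the 32 of their centred level with log length, ran from -0.43 through -0.077 to 0.26 in control males and from 0.013 through 0.18 to 0.35 in stressed males. The part of length in the estimates of the members was not tested.

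Sex also changed none of the 32 past the test. In controls 0 of 32 passed where the background was 0.0674% of genes, and in stressed mice 0 of 32 where it was 0.0858%. Under an unadjusted 0.05 there were 4 members (679 of all genes) in controls and 2 (1816) in stressed mice. The 8 mevalonate and 11 sterol genes all had estimates above 0, higher in males, in controls, and in stressed mice Acat2, Mvk, Pmvk, Mvd and Tm7sf2 lay below 0. Across the 32 genes the Spearman correlation of the estimates with transcript length was -0.50 in controls and 0.39 in stressed mice, and that with G+C was -0.15 and -0.50. Across 16036 genes these values were -0.19 and 0.41 for length and -0.06 and -0.25 for G+C, and the part of either in the members' estimates was not tested. Over the 32 the median was 0.051 in controls and 0.031 in stressed mice, with 24 and 20 genes above 0, while 50.5% and 47.7% of all genes lay above 0.

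The 4 members in controls were Fdft1, Nsdhl, Msmo1 and Insig1. Fdft1, squalene synthase, ran from 54.4 through 60.3 to 64.4 CPM in control females and from 57.3 through 62.9 to 83.1 in control males. The upper part of the males lay above the females, with a log2 difference of 0.18 ± 0.066 and an adjusted p of 0.858. Msmo1, the methylsterol oxidase, had medians of 58.0 and 65.0 CPM and a difference of 0.21 ± 0.088. Nsdhl, which lies on the X chromosome (chrX:72918521-72958528, plus strand, GRCm38.p6), differed by 0.21 ± 0.078, and Insig1 by 0.27 ± 0.12.

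In stressed mice Cyp46a1 and Sqle had the smallest p-values. Cyp46a1 was -0.51 ± 0.21 in males against females, with an edgeR adjusted p of 0.379. Without the libraries that stood apart, 2 of which are stressed females, it was -0.07 ± 0.086. Sqle ran from 28.5 through 41.8 to 51.4 CPM in stressed females and from 42.3 through 49.1 to 57.3 in stressed males. Its difference was 0.25 ± 0.11 with an adjusted p of 0.405, and it was 0.16 ± 0.086 without those libraries.

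**Figure D3:**
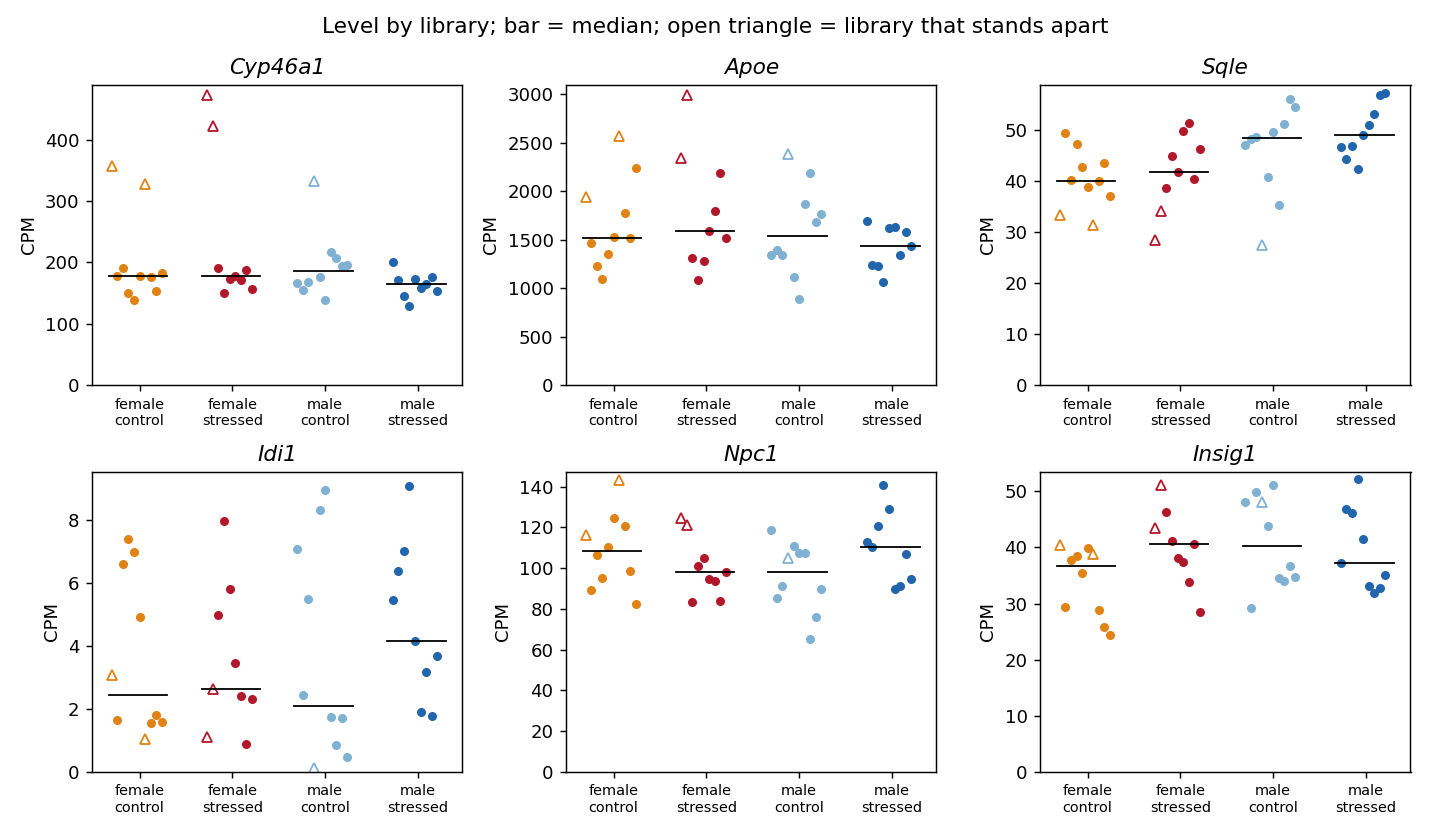
Each panel gives the CPM of 1 gene in every library by group, with the median as a bar and the 5 libraries that stood apart as open triangles. The triangles are the top of Cyp46a1 (328 to 472 CPM) and the bottom of Sqle (27.4 to 34.2 CPM), and Idi1 spreads widely within each group.

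In the 5 libraries that stood apart, 4 of 32 members had values that did not overlap those of the other 33, where the background was 11% of genes, so the share was close to that of all genes. Cyp46a1 was 357.7, 327.9, 332.4, 472.3 and 423.1 CPM in control females 1 and 6, control male 3 and stressed females 1 and 2. In the other 33 it lay between 129 and 217. Sqle was 27.4 to 34.2 CPM in the 5 and 35.4 to 57.3 in the 33. Abcg1 was 118 to 136 against 87.6 to 114, and Acat2, the cytosolic thiolase that feeds the mevalonate steps, 33.7 to 39.4 against 17.96 to 33.4. These libraries were set apart by the values of all genes, the members included, so these are descriptions. Apoe was 1943 to 2991 CPM in the 5 and 883 to 2239 in the 33, and Soat1 12.9 to 21.9 against 18.6 to 40.7.

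The replicate number gave the largest differences. Between libraries numbered 6 and above (n = 18) and 1 to 5 (n = 20), 17 of 32 members passed edgeR's test, where the background was 45.5% of 16309 genes. Of these, 8 were higher in the later numbers (background 23.2%) and 9 were lower (background 22.3%), so the shares were close to those of all genes. All 15 oligodendrocyte markers were lower in the later numbers, with a median of -0.94, and all 8 ependymal markers were higher, with a median of 1.36. Their part in the members' differences was not tested.

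Idi1 fell by 1.59 ± 0.25 on the log2 scale. It ran from 0.115 through a median of 6.09 to 9.09 CPM in libraries numbered 1 to 5 and from 0.467 through 1.77 to 3.69 in the others. The adjusted p was 2.71e-06. Part of Idi1 is shared with other genes: 21.3% of its 50-base words also occur in Gm13502, so its counts are uncertain where reads were split between copies.

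Among other mevalonate genes Ggps1, which makes geranylgeranyl diphosphate, fell by 0.46 ± 0.061, with 57.9 through 83.5 to 102 CPM in libraries 1 to 5 and 46.04 through 59.1 to 70.8 in the others. Hmgcs1 fell by 0.36 ± 0.055 and Acat2 by 0.27 ± 0.078. Pmvk, phosphomevalonate kinase, rose by 0.29 ± 0.11 and Fdps, which makes farnesyl diphosphate, by 0.29 ± 0.072. Acat2 shares 45.9% of its words with Acat3 and 13.2% on the opposite strand with Tcp1, and Fdps 86.4% with other genes, 77.3% with Gm43738 alone, so both are uncertain.

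Of the sterol genes, 3 were higher and 2 lower. Tm7sf2, a sterol reductase, rose by 0.37 ± 0.067 and Dhcr7, which reduces 7-dehydrocholesterol, by 0.31 ± 0.065. Sqle rose by 0.18 ± 0.071 with an adjusted p of 0.0323, and without the 5 libraries it was 0.11 with an adjusted p of 0.0736. Sqle also missed the threshold in 19 of the 38 fits that left out 1 library, at adjusted p-values of 0.0502 to 0.0851. Msmo1 fell by 0.24 ± 0.050 and Ebp, the sterol isomerase, by 0.20 ± 0.068.

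Srebf1 rose by 0.52 ± 0.086, Scap by 0.35 ± 0.065 and Srebf2 by 0.16 ± 0.055. Srebf1 ran from 46.2 through 72.0 to 103 CPM in libraries 1 to 5 and from 76.5 through 101 to 132 in the others. Insig1 went the other way and fell by 0.42 ± 0.055, with 35.5 through 43.6 to 52.1 CPM in libraries 1 to 5 and 24.5 through 33.5 to 40.6 in the others. In transport and removal, Npc1 fell by 0.23 ± 0.067 and Abcg1 by 0.13 ± 0.043. Scap has 13.1% of its words on the opposite strand in 5830462I19Rik and Npc1 8.9% in other genes, and Fdft1 19.9% in Ctsb, so these counts are uncertain while the strand setting is not known.

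These differences ran with base composition. Of the 16 members above the median G+C of 50.5%, 7 were higher and 2 lower in the later numbers. Of the 16 at or below it, 1 was higher and 7 lower. Over all genes on either side of that value, 36.4% were higher and 8.8% lower above it, and 11.2% higher and 34.7% lower below it. The Spearman correlation with G+C was 0.67 across the 32 members and 0.44 across 16036 genes. The part of composition in these differences was not tested.

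**Figure D4:**
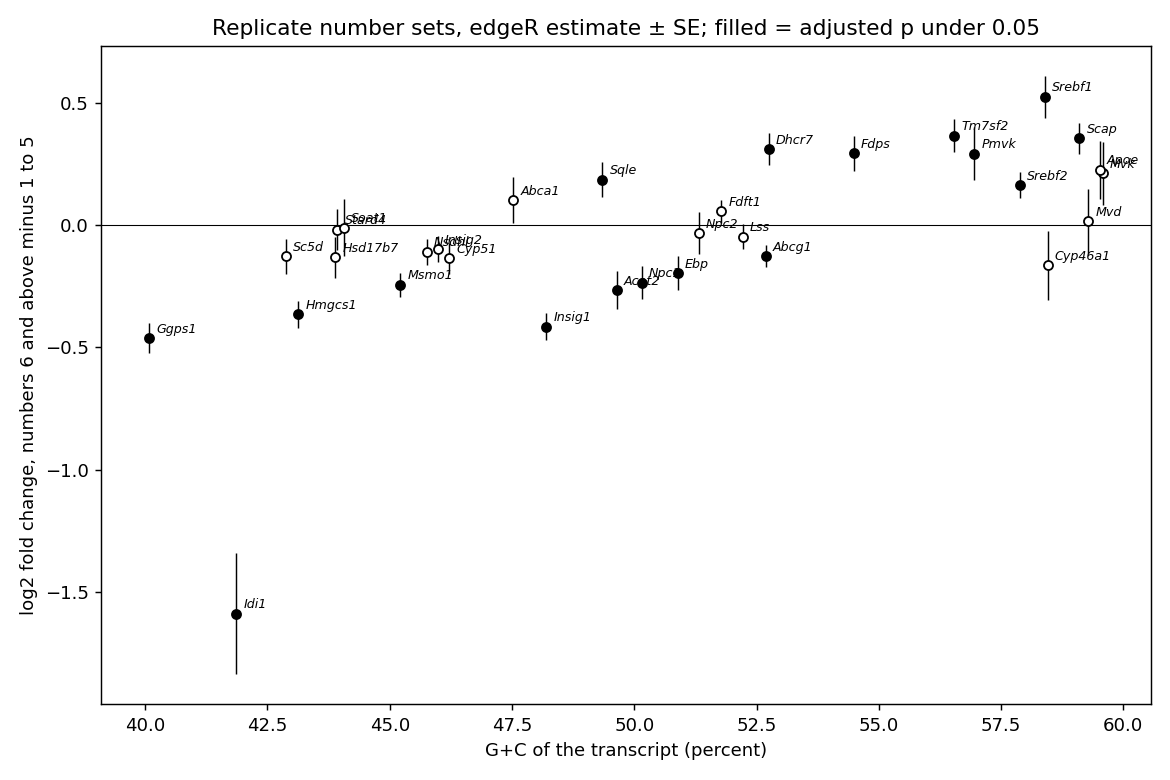
The horizontal axis is the G+C of the transcript in percent and the vertical axis the edgeR log2 fold change (± SE) of libraries numbered 6 and above minus 1 to 5. Filled points passed the test. Srebf1, Scap and Tm7sf2 sit high at the right, and Idi1, Ggps1 and Hmgcs1 sit low at the left.

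Members varied together along the same line within groups. A G+C index was made for each library as the Spearman correlation, across genes other than the 32, of their level with their G+C content. The level is log2 CPM centred within group and number set, without the 5 libraries that stood apart (n = 33). The index was devised after the correlations among the members had been seen. Of 32 members, 23 followed it with permutation p-values that passed Benjamini-Hochberg adjustment over the 32, 12 upward and 11 downward. The share of other genes that would pass this permutation test was not computed. With r of at least 0.5 in size, 12 members were positive and 10 negative (37.5% and 31.2%), against 20.7% and 19.6% of 16004 other genes. Each of the 17 members with a positive r had a G+C between 49.6% and 59.6%, and each of the 15 with a negative r between 40.1% and 50.2%. Across genes, the Spearman correlation of this r with G+C was 0.93 in the 32 members and 0.80 in the 16004 others. The index was built from those 16004 genes and their G+C, so a positive value in them was set in advance. The 32 members had no part in building it.

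The steepest members were these. Apoe followed the index with a Pearson r of 0.89 and a Spearman rho of 0.88 (n = 33; r 0.87 without the 2 farthest libraries). Srebf1 had 0.87 and 0.88, and 0.85 without the 2 farthest. Mvk had 0.87 and 0.85. On the other side Ggps1 had -0.88 and -0.86, and Sc5d, the sterol desaturase, -0.78 and -0.82. The permutation p of each of these r was 1e-05, the smallest that 100000 resamples can give. Within libraries numbered 1 to 5 (n = 16), Apoe had an r of 0.94 and Ggps1 -0.94, and within the later numbers (n = 17) 0.85 and -0.83.

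The r between members was also read in these 33 libraries. The closest pair was Mvk with Scap at an r of 0.87, and Srebf1 and Scap had 0.84. Idi1 and Sc5d had 0.84, and the sterol genes Cyp51 and Msmo1 had 0.77. The most opposed pair was Srebf1 and Ggps1 at -0.90. Srebf2 and Hmgcs1, a gene that SREBP-2 is known to drive, had an r of -0.44. With the mevalonate and sterol genes Srebf2 had r of both signs, from -0.77 with Ggps1 to 0.63 with Mvk.

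**Figure D5:**
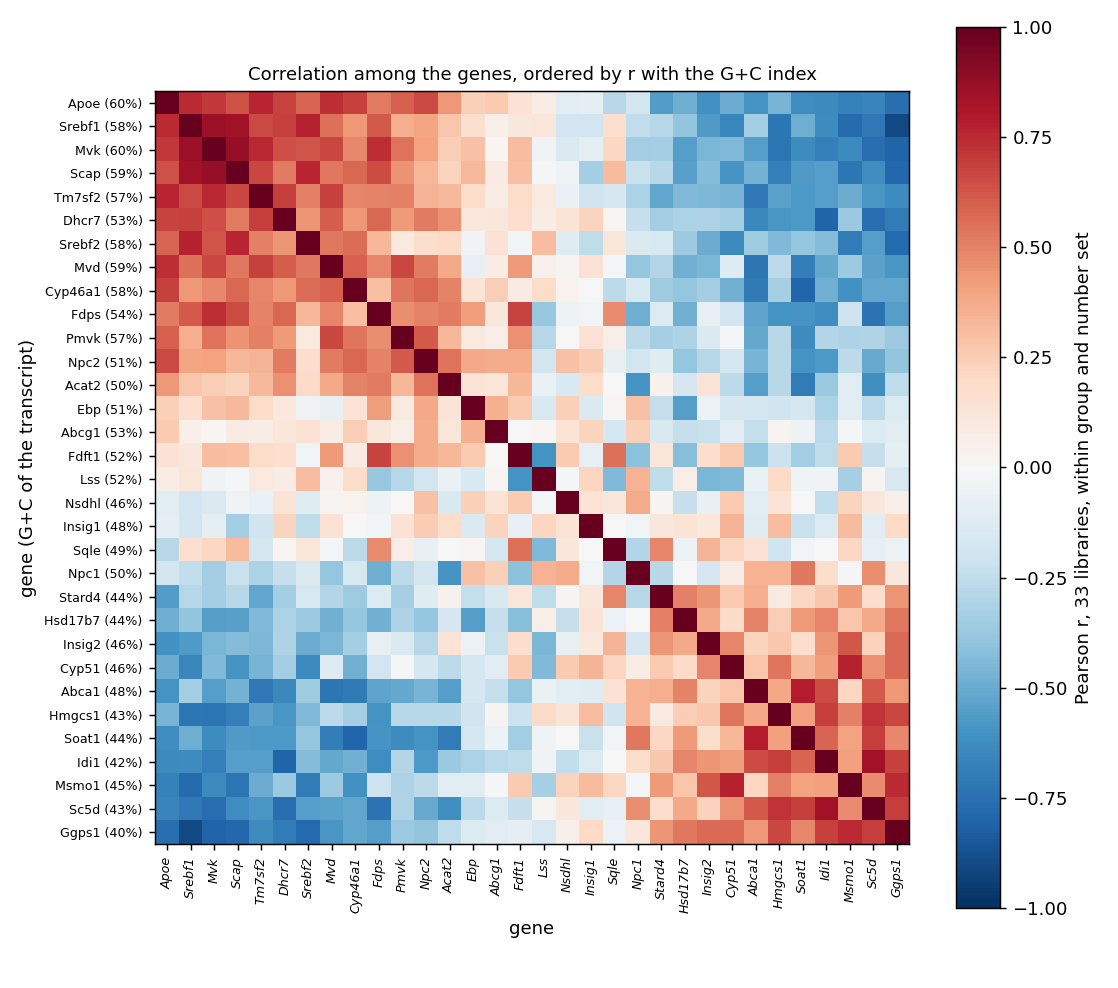
Colours give Pearson r between genes over 33 libraries, centred within group and number set, with the genes in order of their r with the G+C index and their G+C in brackets. The upper left and lower right corners are mostly red and the other corners mostly blue.

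Marker lists of cell types were set beside each member, for 7 lists and 224 relations. Over all 38 libraries with group means subtracted, 33 relations of 22 members passed adjustment, 13 of them with the ependymal list and 10 with the oligodendrocyte list. Without the libraries that stood apart, 48 passed. The share of other genes that would pass was not computed, so these counts cannot be set against all genes. Within libraries numbered 1 to 5 (n = 20) 0 passed and within 6 and above (n = 18) 0 passed, with 33 and 10 relations under an unadjusted 0.05. With values also centred on the number set (33 libraries), 0 passed, and 13 were under an unadjusted 0.05. The relations seen over all libraries therefore did not hold past adjustment within number sets, and no pooled r is given. The nearest were Sqle with neurons, at a Pearson r of 0.66 and a Spearman rho of 0.63, with permutation p-values of 0.00048 and 0.00093 and adjusted values of 0.0538 and 0.0799. Sqle with oligodendrocytes had -0.72 and -0.60, adjusted 0.0765 and 0.0995, and without the 2 farthest libraries r was -0.57. Npc1 with oligodendrocytes had 0.63 and 0.51, adjusted 0.0972 and 0.179.

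Promoters of 26 of the 32 genes were in RefSeq's table for GRCm38.p6, as windows of 250 bases before the start and 50 after. All 7 motifs that were searched, on both strands, are given here, and the sets shown were picked after the matches had been seen. They were searched because SREBP binds sterol elements and works with the factors NF-Y and Sp1. The NF-Y box CCAAT was in 23 of the 36 promoters of these genes and in 37.4% of 32851 promoters. The box that Sp1 is known for, GGGCGG, was in 27 of the 36 and in 35.7% of promoters. The sterol element TCACNCCAC was in Hmgcs1 only (1 of the 36, and 1.24% of promoters). The shorter CACNCCAC, which overlaps it, was in Acat2, Hmgcs1 and Insig1 (3 of the 36, and 6.24%). CACCCCAC was in Acat2 and Hmgcs1 (2 of the 36, and 2.87%). TCACNCCA was in Apoe, Hmgcs1, Msmo1 and Srebf2 (4 of the 36, and 4.36%). The E-box form TCACGTGA was in 0 of the 26 genes (0 of the 36, and 0.974%). The windows around CACNCCAC follow, with the match in capitals, for Hmgcs1 on the plus strand (chr13:119690189-119690248) and Acat2 on the minus strand (chr17:12960873-12960932). The Insig1 match and another of Acat2, both on the opposite strand of the gene, are not shown.
Hmgcs1: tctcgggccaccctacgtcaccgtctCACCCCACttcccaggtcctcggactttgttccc
Acat2: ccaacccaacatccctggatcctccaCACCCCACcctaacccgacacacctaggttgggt
A match is a run of letters and was not tested for binding.

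Other genes of the pathway were counted as well. Of 40 further sterol genes, 39 were tested and 0 passed in stressed females or males, with 13 above 0 and 26 below in females and 19 and 20 in males. Over all genes, 53.6% lay above 0 in females and 45% in males. In females Ch25h, which makes 25-hydroxycholesterol, had 1.09 ± 0.57 and Pgrmc1 0.14 ± 0.081. Lipa, the lysosomal lipase, had -0.17 ± 0.10. In males Lrp1, a receptor for apolipoprotein E, had 0.30 ± 0.19 and Rnf145 0.08 ± 0.061, and Dhdds had -0.16 ± 0.086. In the difference of the effects Osbp had 0.19 ± 0.095 and Ch25h -1.72 ± 0.84, with edgeR adjusted p-values of 0.845 for both. Lipa and Pgrmc1 were next, at 0.25 ± 0.15 and -0.21 ± 0.12. Over both sexes Rnf145 (0.08) and Cyp7b1 (0.09) came first upward. Male minus female in controls, Acat1 (0.11) and Dhdds (0.17) were first upward and Osbp (-0.08) and Stard3 (-0.12) downward. In stressed mice the same order gave Lipa (0.27) and Osbp (0.11), and Ch25h (-1.30) and Acaa2 (-0.28).

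The 20 fatty acid genes, many of them targets of SREBP-1, likewise had 0 passing in each stress or sex contrast, with 10 above 0 and 10 below in both sexes' stress contrasts. Gpam (0.09) and Cpt1a (0.10) came first upward in females, and Acss2 (-0.13) and Acaca (-0.11) downward. In males Cpt1a (0.17) and Gpam (0.13) came first upward, and Fads1 (-0.12) and Me1 (-0.09) downward. In the difference of the effects these were Acaca (0.20), Acss2 (0.17), Me1 (-0.17) and Fads1 (-0.18). Over both sexes they were Cpt1a (0.13), Gpam (0.11), Acss2 (-0.05) and Elovl5 (-0.08). Between the sexes, Acsl1 (0.14), Elovl6 (0.09) and Fads1 (-0.09) were among them in controls. In stressed mice Elovl6 (0.26), Acaca (0.16) and Fads1 (-0.27) were among them.

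Between the number sets 13 of the 39 sterol genes were higher and 3 lower, and 7 and 5 of the 20 fatty acid genes, where the background was 23.2% higher and 22.3% lower. Lrp1 rose by 0.74 ± 0.070 and Pltp by 0.96 ± 0.11, while Apod fell by 0.65 ± 0.14 and Cyp27a1 by 0.55 ± 0.15. Fasn, fatty acid synthase, rose by 0.37 ± 0.063, while Elovl5 fell by 0.42 ± 0.060 and Scd2 by 0.29 ± 0.055.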

How the data were processed

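Poly-A RNA of 38 adBNST microdissections was sequenced, and the deposited table holds unscaled counts, whole numbers for each gene symbol and library. The build mm10 and the tools STAR, featureCounts and DESeq2 are named, per the submitters' processing notes. The sources used here give no version, annotation or strand setting. Libraries were grouped from their sex and treatment labels. The table has 0 columns that match no library.

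The 32 members and the gene lists were chosen with earlier results of these data known. Counts were tested with edgeR 4.0.16 (quasi-likelihood, TMM, filterByExpr by group, a mean per group, the study's model of sex, condition and interaction) in R 4.3.3. Benjamini-Hochberg adjustment was over the 16309 genes left by the filter, with a threshold of 0.05. The filter removed 8921 genes. Levels are CPM on effective library sizes, and log2 CPM used a prior count of 2. The text names all 32 members. Of 2 further lists it names genes that passed, or the 2 of smallest p in each direction. For the number sets it names the 2 of smallest p in each direction. Some genes that this rule picks from the further lists are not reported here. The test was tried on simulated counts with 200 changed genes. Alternatives used DESeq2 1.42.0 and limma 3.58.1. A further list member was not in the table. Total counts ran from 9.1 to 84.8 M, and the errors of the estimates also hold the spread between libraries. 1 count was worth 0.0116 to 0.115 CPM.

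Correlations used 100000 permutations within groups, as planned. Correlations centred also on number set, the G+C and length indices and the promoter motifs were chosen after seeing the data. Transcript lengths, G+C and shared words of 50 bases came from GENCODE M21, and covered 16036 tested genes. Coordinates of genes and promoters came from RefSeq's GRCm38.p6, the assembly that mm10 names. Proteins are not shown here.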

Additional observations from a re-analysis of the deposited data

Results flagged for a closer look

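In 7 of 128 sets of values (32 genes in 4 groups), the highest library was farther from the nearest other library than Dixon's 95% limit allows. Chance flags about 5% of such sets. Of the 7 values, 5 lie in libraries that stood apart on all genes. Cyp46a1 was 332 CPM in control male 3, where the next value was 217. Npc2 was 106 CPM in the same library, with 75.1 next, and 97.3 CPM in control female 6, with 68.0 next. Mvk was 22.9 CPM in control female 6, with 15.8 next, and Nsdhl 30.4 CPM in control female 1, with 22.6 next. The other 2 were Lss at 51.5 CPM in control female 5, with 44.6 next, and Dhcr7 at 53.9 CPM in stressed female 8, with 42.0 next. Leaving out control male 3 moved the change of Npc2 in stressed males from -0.30 to -0.18.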

How the results depend on the processing

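In each stress and sex contrast 0 members passed in every alternative run: other tools (DESeq2, and limma voom weighted by library quality), size factors in place of TMM, all genes kept whatever their counts, the replicate block, a term for the number set, each number set alone, the 5 libraries that stood apart left out, and each library left out in turn. The replicate block gave 0 members in each contrast. Libraries of the same number had correlated deviations of -0.36 to 0.67 (median 0.23), much as libraries of different numbers in the same set (median 0.24), and 9 of 38 libraries correlated best with their own number, so the numbers were not taken to pair them. The medians of the members moved from their reported values by less than 0.048, the SD between libraries of the members' mean, in each of these alternatives. Over all genes, those passing between the sexes in controls were 11, against 21 with DESeq2, 30 with voom and 7 in libraries numbered 1 to 5. In stressed mice they were 14, against 8 in libraries 1 to 5 and 6 in libraries 6 and above. Leaving out 1 library gave 9 to 15 in both, with the 9 in stressed mice without stressed female 3. The cause was not tested. Between the number sets 16 to 24 members passed. Relations with marker lists were 33, and 0 within each number set or centred on it. Members following the G+C index were 23, with 21 in libraries 1 to 5 alone (n = 16) and 14 in libraries 6 and above alone (n = 17). Those following the length index were 17, 19 and 8. The share of other genes that would pass these permutation tests was not computed, so these counts cannot be set against all genes. The cause was not tested. Low counts limit precision: Idi1 had as few as 1 count.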
